A study of Mus musculus with 24 samples.

Results

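Blood vessel growth is directed by secreted ligands, by the receptors that read them and by inhibitors that hold the process back. Vegfa and its relatives act through the receptor tyrosine kinases VEGFR1, VEGFR2 and VEGFR3, Pdgfb recruits pericytes to new vessels, Angpt2 loosens vessels by opposing Angpt1 at the receptor Tie2, and Thbs1 is a matrix protein that restrains endothelial cells. Macrophages in tumors are a known source of several of these ligands, and they also carry receptors of the family themselves: Flt1 guides macrophage migration and Nrp1 takes up both VEGF and semaphorin signals.

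A set of 10 genes of this system was followed in murine bone marrow-derived macrophages (BMDMs), namely the ligands Vegfa, Vegfb, Vegfc, Pgf, Pdgfb and Angpt2, the receptors and co-receptors Flt1, Nrp1 and Eng, and the inhibitor Thbs1. They were chosen by symbol, and all 10 of 10 were found among the 35770 gene names of the expression table. Values are TPM, transcript abundances scaled for transcript length and for the library total, so that levels can be set side by side between genes.

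BMDMs came from C57BL/6 mice and were grown with recombinant M-CSF at 20 ng/mL. For 24 h they received 75% of a medium that had been kept for 48 h on a plate without cells (media) or on LL2 cells, a Lewis lung carcinoma line of C57BL/6 origin, that were unedited (WT CM), had lost KEAP1 (KEAP1 KO CM) or had lost NRF2 (NRF2 KO CM), where CM stands for conditioned media. KEAP1 is the repressor of the transcription factor NRF2, and both edits were made in the cancer cells, so the macrophages were unedited in every group and no library can check an edit. Each medium was combined with vehicle or with 100 nM CDDO-Me, a synthetic triterpenoid that activates NRF2, which gave 8 groups of 3 libraries. The library names give 1 code for each edited LL2 line, the progenitor cells of a plating were split evenly between wells, and whether the 3 samples of a group came from different mice is not stated in the sources used here; p-values measure the spread between these samples.

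The 8 macrophage markers examined were expressed in all 24 libraries, with a summed level of 15681 to 38521 TPM. Most of this sum was Lyz2, at 12084 to 34332 TPM. Among the others, Fcgr1 was at 24.4 to 532 TPM and Cd68 at 631 to 2381 TPM. The replicate 3 libraries of NRF2 KO CM/vehicle and NRF2 KO CM/CDDO-Me stood apart from the rest, with 15702 and 16299 gene names above 0 against 17817 to 18993 in the other 22 libraries. The 10 endothelial markers summed to 36.2 to 175 TPM, of which Vwf alone gave 20.0 to 114 TPM, and the highest sum was in NRF2 KO CM/vehicle replicate 2. The 10 fibroblast markers summed to 195 to 2235 TPM, and in all 8 groups replicate 2 was highest and replicate 3 was lowest. No marker of these 3 lists was at 0 in every library. The cultures are bulk samples, in which fewer cells of a type and less RNA per cell cannot be told apart. In the annotation, exons of Vegfa, Vegfc, Angpt2, Eng, Nrp1 and Thbs1 share bases with another gene on the opposite strand, and the strand of the libraries is not given in the sources used here.

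Promoter sequence is shown because NRF2 and the hypoxia-inducible factors (HIFs) bind short motifs of known letters, and Vegfa is a textbook HIF target. The 250 bases before the transcription start of each member's canonical transcript were read from GRCm39, with starts from GENCODE, and searched on both strands for the core of the hypoxia response element, ACGTG, and for the core of the antioxidant response element, TGACNNNGC. Of 21770 promoters of protein-coding genes, 17.0% held the first and 9.69% the second in a window of that length. Among the members, 3 of 10 held the first and 2 of 10 the second. The window of Vegfa on chromosome 17, read from the minus strand, lies outside any annotated exon and holds neither motif, which says only that these letters are not in these bases. It is given whole, 5′ to 3′ along the gene.
Vegfa, chr17:46343310-46343559: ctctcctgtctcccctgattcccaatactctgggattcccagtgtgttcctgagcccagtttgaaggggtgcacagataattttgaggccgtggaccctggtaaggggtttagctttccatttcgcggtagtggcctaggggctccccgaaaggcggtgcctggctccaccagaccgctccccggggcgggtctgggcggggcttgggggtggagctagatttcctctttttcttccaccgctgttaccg

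The members with a match are given as 30 bases around it, with the matched bases in capitals and each read 5′ to 3′ along its own gene. In Vegfb the 2 matches are the same palindrome read on both strands, and in Nrp1 the hypoxia and antioxidant cores overlap. A match describes the letters and does not show that a factor binds there. Of the 250 bases of the Nrp1 window, 202 lie in annotated exons of other Nrp1 transcripts, as the gene's first annotated base, 129085085, is upstream of the window, and the match is in such an exon. In the Vegfb window, 103 bases lie in exons of Dnajc4 or Vegfb, and the match is in an exon of Dnajc4. The Pgf window holds 0 exon bases, and that of Vegfc 3, apart from the match.
Vegfb, chr19:6965290-6965319, minus strand: tgtccagaactaCACGTGcaataaactcat
Pgf, chr12:85224632-85224661, minus strand: cggttctggaggCACGTagcttgtcttgtc
Vegfc, chr8:54530127-54530156, plus strand: aggggagggcTGACTGGGCtcggcacgctc
Nrp1, chr8:129085258-129085287, plus strand: gacacacatACGTGACCTTGCgctctgggc

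To ask what the medium alone did to these genes, vehicle-treated groups were compared with media/vehicle. By the calls, WT CM and KEAP1 KO CM raised Flt1 and lowered Nrp1, and NRF2 KO CM gave no call. Pdgfb was called lower in KEAP1 KO CM, and was also lower in WT CM without a call. Tests were made with limma on log2(TPM + 1) over 13661 genes, a gene being called at a Benjamini-Hochberg adjusted p under 0.05, and fold changes are on that scale, which understates the change of low genes. In WT CM/vehicle, 2 of 10 members were called, where 7.33% of all genes tested were called, 1 higher and 1 lower beside 4.33% and 3.01% of all genes. Pdgfb missed the threshold there, at -1.39 (adjusted p = 0.0515), and passed with the replicate number as a block (adjusted p = 0.0193). The Nrp1 call there was lost with any 1 of the 6 libraries left out. In KEAP1 KO CM/vehicle, 3 of 10 were called against 7.96% of all genes, 1 higher and 2 lower beside 4.66% and 3.31%. The Pdgfb and Nrp1 calls there were each lost without some single libraries. In NRF2 KO CM/vehicle, 0 of 10 were called, and limma called 0.00732% of all genes, which is 1 gene, with 1657 genes and 1 member, Pdgfb, at an unadjusted p under 0.05. The median log2 difference over the members was -0.28 in WT CM, -0.20 in KEAP1 KO CM and 0.12 in NRF2 KO CM, beside medians over all genes of 0.01, 0 and 0.01.

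**Figure D1:**
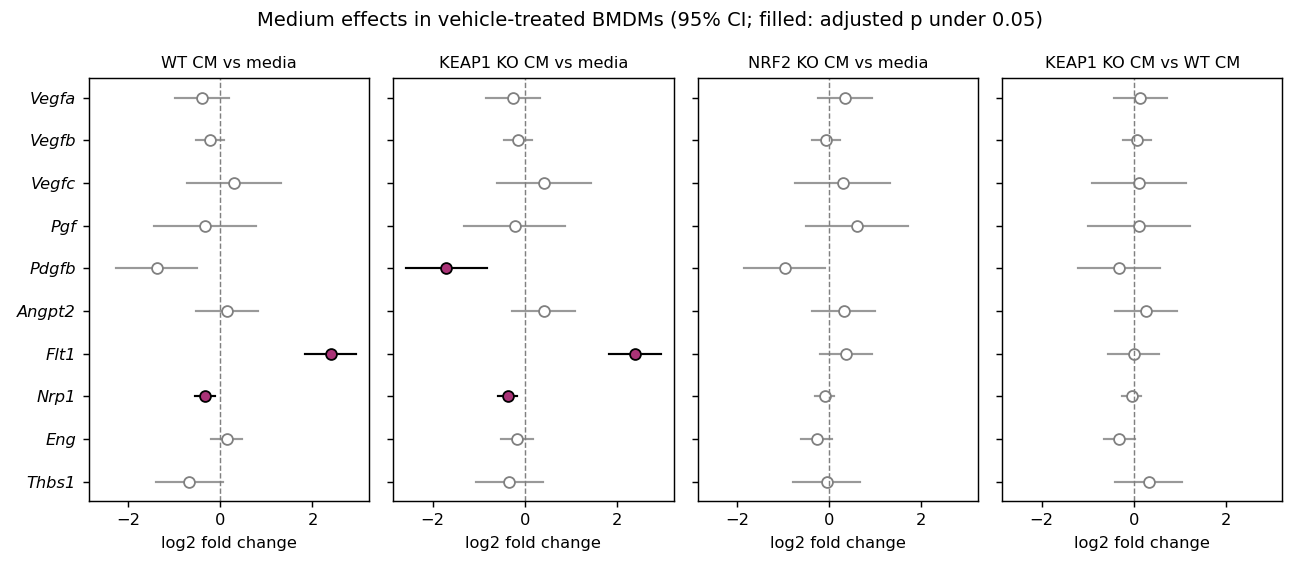
Log2 fold change of each member (x axis, on the log2(TPM + 1) scale) in vehicle-treated BMDMs, for each conditioned medium against media and for KEAP1 KO CM against WT CM, with 3 libraries a group. Points are fitted differences and lines their 95% confidence intervals; filled points passed an adjusted p of 0.05. Flt1 stands alone on the right, at 2.39 in both WT CM and KEAP1 KO CM, and no point is filled for NRF2 KO CM against media or KEAP1 KO CM against WT CM.

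To ask whether the loss of KEAP1 in the cancer cells mattered beyond the effect of WT CM, KEAP1 KO CM/vehicle was compared with WT CM/vehicle. None of the 10 members was called, and limma called 0% of all genes, with 341 genes and 0 members at an unadjusted p under 0.05. The differences ran from -0.32 for Pdgfb, with a 95% interval of -1.197 to 0.56, to 0.33 for Thbs1, with an interval of -0.40 to 1.06. The smallest unadjusted p was that of Eng, at 0.0737, for a difference of -0.31 with an interval of -0.65 to 0.03 (adjusted p = 1). With array weights, a fit that gives divergent libraries less influence, Eng passed as lower (adjusted p = 0.0428). The absence of calls does not show that both media act alike.

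To ask what CDDO-Me did within each medium, CDDO-Me groups were compared with the vehicle group of the same medium. Vegfb fell and Nrp1 rose in all 4 media. In WT CM and KEAP1 KO CM, Pdgfb and Eng also rose and Angpt2 and Flt1 also fell, and Vegfa rose in KEAP1 KO CM. In media 2 of 10 members were called, against 6.01% of all genes. In WT CM 6 of 10 were called, against 27.8%, and in KEAP1 KO CM 7 of 10, against 28.8%. In NRF2 KO CM 2 of 10 were called, against 9.77%. By direction, 3 of 10 members rose and 3 fell in WT CM, where 13.9% of all genes rose and 13.9% fell. With KEAP1 KO CM 4 rose and 3 fell, beside 14.5% and 14.2% of all genes. In media and in NRF2 KO CM 1 member rose and 1 fell, beside 3.07% and 2.94% of all genes in media and 4.49% and 5.28% in NRF2 KO CM.

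**Figure D2:**
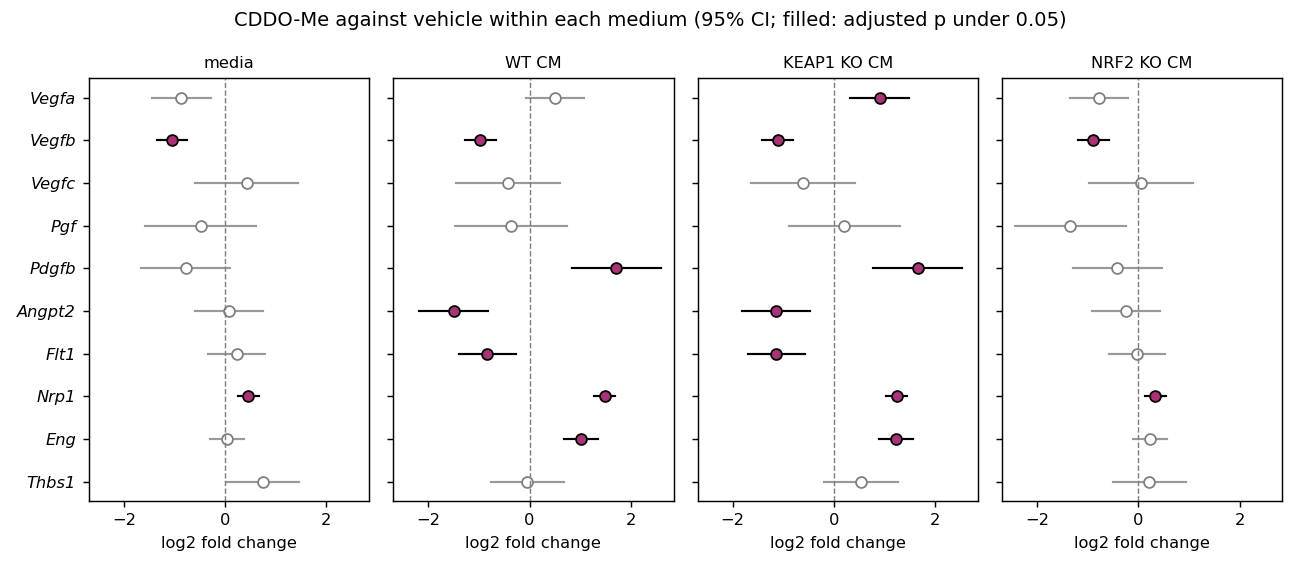
Log2 fold change of each member for CDDO-Me against vehicle within each of the 4 media (x axis, on the log2(TPM + 1) scale), with 3 libraries a group. Points are fitted differences and lines their 95% confidence intervals; filled points passed an adjusted p of 0.05. Vegfb is filled on the left and Nrp1 on the right in all 4 panels, and Pdgfb, Eng, Angpt2 and Flt1 are filled in WT CM and KEAP1 KO CM, with Vegfa also filled in KEAP1 KO CM.

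Whether the CDDO-Me effect differed between media was tested directly, as the effect in a conditioned medium minus the effect in media. For WT CM, 5 of 10 members were called (Vegfa, Pdgfb, Eng and Nrp1 upward, Angpt2 downward), against 15% of all genes, 8.3% upward and 6.73% downward. For KEAP1 KO CM, 5 of 10 were called (Vegfa, Pdgfb, Eng and Nrp1 upward, Flt1 downward), against 14.7%, 8.39% upward and 6.35% downward. For NRF2 KO CM 0 of 10 were called, and for the effect in KEAP1 KO CM minus that in WT CM 0 of 10 were called. In these last comparisons limma called 0% of all genes, with 374 and 225 genes and 0 and 0 members at an unadjusted p under 0.05. The differences against media all use the same media libraries.

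Vegfa, the main driver of vessel sprouting (GRCm39, chromosome 17, 46327919 to 46343309, minus strand), was at 34.0 to 179 TPM. In media the vehicle libraries were at 108, 113 and 83.4 TPM and the CDDO-Me libraries at 68.8, 69.3 and 34.0 TPM. In NRF2 KO CM they were at 124, 123 and 129 TPM with vehicle and at 71.4, 82.1 and 64.9 TPM with CDDO-Me. In both of these media every CDDO-Me library was below every vehicle library. The log2 differences of -0.86 (SE 0.28, adjusted p = 0.0757) and -0.78 (SE 0.28, adjusted p = 0.0881) missed the threshold, and both passed it with the replicate number as a block (adjusted p = 0.0171 and 0.0248), in 2 comparisons where same-numbered libraries deviated together.

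Vegfa went the other way in the other 2 media. In WT CM the libraries were at 91.0, 67.6 and 61.9 TPM with vehicle and at 122, 121 and 58.5 TPM with CDDO-Me. In KEAP1 KO CM they were at 84.9, 89.3 and 79.9 TPM with vehicle and at 172, 179 and 90.7 TPM with CDDO-Me. In WT CM replicate 3 of the CDDO-Me group lay below all 3 vehicle libraries, and in KEAP1 KO CM the groups did not overlap but replicate 3 was again the lowest of its group. The rise in KEAP1 KO CM was called, at 0.90 (SE 0.28, adjusted p = 0.0175), and was no longer called without KEAP1 KO CM/CDDO-Me replicate 1 or 2 (adjusted p up to 0.0898) or without scaling between libraries. The difference of 0.50 in WT CM was not called (adjusted p = 0.213), but was without WT CM/CDDO-Me replicate 3 (0.84, adjusted p = 0.024).

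Set against the effect in media, the CDDO-Me effect on Vegfa was higher by 1.36 in WT CM (SE 0.39, adjusted p = 0.0211) and by 1.77 in KEAP1 KO CM (SE 0.39, adjusted p = 0.00324). The first of these lost its call when any of 7 of the 12 libraries was left out, namely media/vehicle replicate 1 or 2, WT CM/vehicle replicate 2 or 3, media/CDDO-Me replicate 3 and WT CM/CDDO-Me replicate 1 or 2 (adjusted p up to 0.068). The second kept its call in every such fit. By mean level, KEAP1 KO CM/CDDO-Me was highest at 147 ± 49.1 TPM (SD, n = 3), followed by NRF2 KO CM/vehicle at 125 ± 3.33 TPM, and media/CDDO-Me was lowest at 57.4 ± 20.3 TPM. Between neighbours in this order the libraries overlapped everywhere but between NRF2 KO CM/vehicle and media/vehicle, at 101 ± 15.9 TPM.

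**Figure D3:**
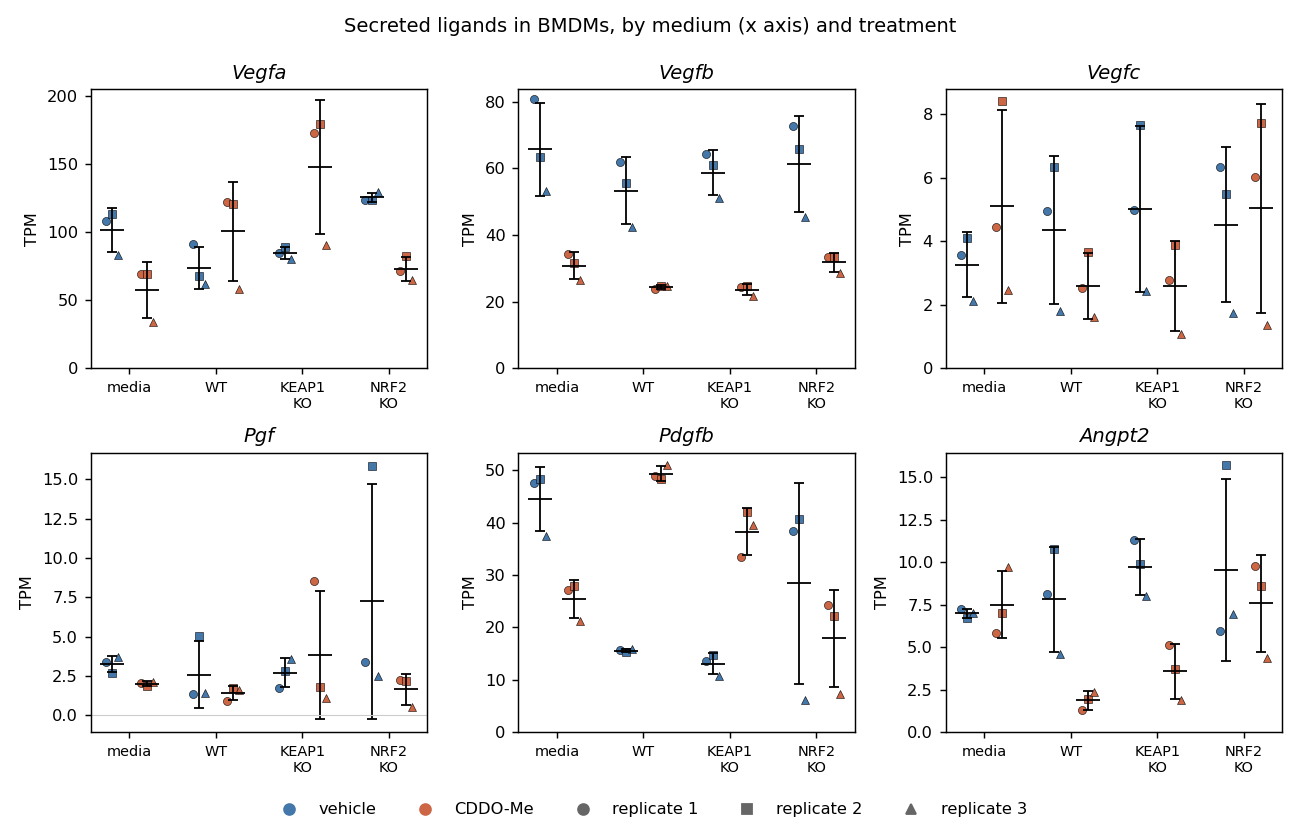
TPM (y axis, linear, a scale of its own in each panel) of the 6 secreted ligands by medium (x axis) in vehicle (blue) and CDDO-Me (orange) libraries. Symbols are libraries, with circles, squares and triangles for replicates 1, 2 and 3, and lines are the mean and SD of 3 libraries. Vegfb drops with CDDO-Me in every medium. The Pdgfb mean is lower with CDDO-Me in media, a difference that was not called. It climbs from 15.6 to 49.4 TPM in WT CM and from 13.1 to 38.3 TPM in KEAP1 KO CM.

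Vegfb, a VEGFR1 ligand better known for fatty acid handling and cell survival than for sprouting (chromosome 19, 6958447 to 6965127, minus strand), fell with CDDO-Me in all 4 media. Vehicle libraries were at 80.7, 63.4 and 53.1 TPM in media, at 61.9, 55.7 and 42.4 TPM in WT CM, at 64.2, 60.9 and 51.0 TPM in KEAP1 KO CM and at 72.8, 65.7 and 45.3 TPM in NRF2 KO CM. CDDO-Me libraries were at 34.3, 31.6 and 26.4 TPM in media, at 23.7, 24.8 and 24.6 TPM in WT CM, at 24.3, 24.7 and 21.7 TPM in KEAP1 KO CM and at 33.5, 33.5 and 28.6 TPM in NRF2 KO CM. All 12 vehicle libraries were above all 12 CDDO-Me libraries. The changes were -1.05 in media (SE 0.14, adjusted p = 8.22e-05), -0.97 in WT CM (adjusted p = 2.50e-05), -1.11 in KEAP1 KO CM (adjusted p = 5.08e-06) and -0.89 in NRF2 KO CM (adjusted p = 0.000322). They kept their calls with any library left out. The NRF2 KO CM call was lost only when those 2 groups were fitted alone (adjusted p = 0.0942). No difference between media was called for Vegfb, neither among vehicle groups nor in the CDDO-Me effect.

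Pdgfb (chromosome 15, 79880009 to 79899181, minus strand) differed between media in its response to CDDO-Me. In media it was at 47.6, 48.4 and 37.5 TPM with vehicle and at 27.1, 27.8 and 21.2 TPM with CDDO-Me. In WT CM the vehicle libraries were at 15.6, 15.2 and 15.8 TPM and the CDDO-Me libraries at 48.8, 48.3 and 51.1 TPM. For KEAP1 KO CM the values were 13.7, 14.7 and 10.8 TPM with vehicle and 33.4, 42.0 and 39.6 TPM with CDDO-Me. None of these pairs of groups overlapped, and the levels in WT CM/CDDO-Me overlapped those of media/vehicle.

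The fall of Pdgfb in KEAP1 KO CM/vehicle against media/vehicle was called, at -1.70 (SE 0.42, adjusted p = 0.0143), and lost its call without media/vehicle replicate 1 or 2 or KEAP1 KO CM/vehicle replicate 3 (adjusted p up to 0.0589). The difference of -1.39 in WT CM (adjusted p = 0.0515) passed with the replicate number as a block (adjusted p = 0.0193). The smooth muscle marker sum was 551 to 703 TPM in media/vehicle, 195 to 247 TPM in WT CM/vehicle and 312 to 443 TPM in KEAP1 KO CM/vehicle, with 3 of its 3 tested genes called lower in WT CM and 1 of 3 in KEAP1 KO CM, and its part in the Pdgfb values was not tested. CDDO-Me raised Pdgfb by 1.71 in WT CM (SE 0.42, adjusted p = 0.00377), which is 3.28-fold, and by 1.65 in KEAP1 KO CM (adjusted p = 0.0048), which is 3.14-fold, and both calls held with any library left out. In media the difference was -0.78 (adjusted p = 0.403), with the 3 same-numbered ratios at 0.569, 0.575 and 0.564. The effect in WT CM exceeded that in media by 2.50 (SE 0.59, adjusted p = 0.00596) and the effect in KEAP1 KO CM by 2.44 (SE 0.59, adjusted p = 0.00705).

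The NRF2 KO CM libraries of Pdgfb were far apart. NRF2 KO CM/vehicle was at 38.3, 40.7 and 6.17 TPM and NRF2 KO CM/CDDO-Me at 24.3, 22.3 and 7.24 TPM, the low value in each being the replicate 3 library with few gene names. Without these 2 libraries Pdgfb also passed as lower in WT CM/vehicle than in media/vehicle and as lower with CDDO-Me in media. Without NRF2 KO CM/vehicle replicate 3, it passed as lower in KEAP1 KO CM/vehicle than in NRF2 KO CM/vehicle (-1.50, adjusted p = 0.00109; -0.73 and adjusted p = 0.284 with it).

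Angpt2 (chromosome 8, 18739202 to 18791603, minus strand) was a low transcript that CDDO-Me lowered further in WT CM and KEAP1 KO CM. WT CM libraries were at 8.12, 10.8 and 4.59 TPM with vehicle and at 1.28, 1.94 and 2.38 TPM with CDDO-Me. KEAP1 KO CM libraries were at 11.3, 9.89 and 8.01 TPM with vehicle and at 5.11, 3.71 and 1.91 TPM with CDDO-Me. In WT CM and KEAP1 KO CM the groups did not overlap. In control media and NRF2 KO CM they did, at 5.82 to 9.71 TPM and 4.33 to 15.7 TPM in all. The changes were -1.50 in WT CM (SE 0.32, adjusted p = 0.00123) and -1.14 in KEAP1 KO CM (SE 0.32, adjusted p = 0.0104). The first was -0.84 at a pseudocount of 5, with its call kept. The second lost its call without KEAP1 KO CM/vehicle replicate 1 or KEAP1 KO CM/CDDO-Me replicate 3 (adjusted p up to 0.0785).

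The effect on Angpt2 in WT CM was lower than that in media by 1.58 on the log2 scale (log2 difference -1.58, SE 0.46, adjusted p = 0.0227), a call lost without WT CM/vehicle replicate 1 or 2, media/CDDO-Me replicate 3 or WT CM/CDDO-Me replicate 1 (adjusted p up to 0.0738) or with no filter on low values. The difference in KEAP1 KO CM, -1.21, was not called (adjusted p = 0.0865), but was without KEAP1 KO CM/CDDO-Me replicate 1 (adjusted p = 0.043). The gene on the strand opposite to Angpt2 is the protein-coding Mcph1. The fibroblast marker sum, 583 to 1195 TPM in WT CM/vehicle and 824 to 1560 TPM in KEAP1 KO CM/vehicle, was 236 to 645 TPM and 195 to 864 TPM with CDDO-Me, and its part in the result was not tested. Of its 10 genes, all tested, 1 was called lower in WT CM and 2 in KEAP1 KO CM.

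Vegfc, the lymphatic growth factor (chromosome 8, 54530257 to 54640131, plus strand), and Pgf, a VEGFR1 ligand (chromosome 12, 85213409 to 85224564, minus strand), were low and passed no test in the 14 comparisons. Vegfc was at 1.07 to 8.41 TPM, with replicate 2 highest in 7 of 8 groups and replicate 3 lowest in 8 of 8, which is close to the order of the fibroblast marker sum. Pgf was at 0.52 to 15.9 TPM with a median of 2.16 TPM. Its 2 highest values were single libraries, 15.9 TPM in NRF2 KO CM/vehicle replicate 2, beside 3.37 and 2.51 TPM in replicates 1 and 3, and 8.53 TPM in KEAP1 KO CM/CDDO-Me replicate 1, beside 1.82 and 1.13 TPM. For both genes the libraries of every neighbouring pair of groups in the order of means overlapped. Still, every Pgf library with CDDO-Me lay below every vehicle library in media and in NRF2 KO CM. The log2 differences were -0.49 (adjusted p = 0.837) and -1.34 (adjusted p = 0.131). In WT CM and KEAP1 KO CM the Pgf libraries overlapped, as those of Vegfc did in every medium.

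Flt1 encodes VEGFR1, the receptor for Vegfa, Vegfb and Pgf (chromosome 5, 147498414 to 147662826, minus strand). In media/vehicle it was at 0.567, 0.186 and 0.352 TPM, in WT CM/vehicle at 5.70, 5.81 and 6.66 TPM and in KEAP1 KO CM/vehicle at 6.35, 7.28 and 5.56 TPM. NRF2 KO CM/vehicle libraries were at 0.425, 2.36 and 0.16 TPM. The 6 libraries of the first pair of conditioned media were thus above every other vehicle library, and NRF2 KO CM/vehicle overlapped media/vehicle. Flt1 was higher than in media by 2.39 in WT CM (SE 0.27, adjusted p = 4.84e-06) and by 2.39 in KEAP1 KO CM (adjusted p = 4.60e-06), which is 5.26-fold and 5.25-fold on the log2(TPM + 1) scale. These values depend on the pseudocount, running from 1.05 at 5 to 3.85 at 0.1 in either medium, with the call kept, and the ratios of mean TPM were 16.5 and 17.4.

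Against NRF2 KO CM/vehicle, 1 of 10 members was called for WT CM, beside 10.7% of all genes (6.56% higher and 4.09% lower), and 1 of 10 for KEAP1 KO CM, beside 8.81% (5.64% higher and 3.17% lower). Both times it was Flt1, higher by 2.03 (SE 0.27, adjusted p = 3.97e-05) and by 2.03 (adjusted p = 4.67e-05). These calls held with any library left out, but not when only the groups compared were fitted (adjusted p = 0.0848 and 0.0946), and the values ran from 0.92 at a pseudocount of 5 to 3.19 at 0.1. NRF2 KO CM/vehicle replicate 2, which had the most Flt1 in its group, also had the highest endothelial marker sum, 175 TPM beside 54.7 and 45.8 TPM, and the highest Angpt2, 15.7 TPM beside 5.96 and 6.96 TPM.

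CDDO-Me lowered Flt1 where conditioned media had raised it. WT CM/CDDO-Me was at 2.54, 2.90 and 2.80 TPM and KEAP1 KO CM/CDDO-Me at 1.95, 2.37 and 1.85 TPM, below all 6 vehicle libraries of these media and above all media libraries of either treatment. The changes were -0.83 in WT CM (SE 0.27, adjusted p = 0.0242) and -1.14 in KEAP1 KO CM (SE 0.27, adjusted p = 0.00249). The first lost its call without WT CM/vehicle replicate 3 or any of the 3 WT CM/CDDO-Me libraries (adjusted p up to 0.0849), with no filter on low values and with all 8 replicate 3 libraries left out, and both lost it at a pseudocount of 0.1 (adjusted p = 0.206 and 0.0609). The effect in KEAP1 KO CM was below that in media by 1.37 on the log2 scale (log2 difference -1.37, SE 0.38, adjusted p = 0.0169). That call was lost at a pseudocount of 0.1 (adjusted p = 0.092) and with all 8 replicate 3 libraries left out. The difference in WT CM, -1.06, was not called (adjusted p = 0.0693).

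Sums of endothelial and epithelial markers differed between the same groups, each mostly through 1 or 2 genes. The endothelial marker sum was 66.4 to 76.3 TPM in media/vehicle, 97.7 to 132 TPM in WT CM/vehicle and 86.0 to 130 TPM in KEAP1 KO CM/vehicle, and 45.0 to 79.2 TPM and 40.8 to 70.6 TPM in the last pair with CDDO-Me. Of the 9 endothelial markers tested, 1 was called higher, Pecam1, and 1 lower, Kdr, in WT CM/vehicle as in KEAP1 KO CM/vehicle against media/vehicle, and 0 of 9 were called in NRF2 KO CM/vehicle. The list's median log2 difference was -0.04 in WT CM and -0.07 in KEAP1 KO CM. Most of the sum was Vwf, at a mean of 52.5 TPM in media/vehicle and 87.1 TPM in WT CM/vehicle (not called), and Pecam1 was at 2.54 and 15.3 TPM, whereas Kdr was at 3.25 and 1.33 TPM, Cdh5 at 2.95 and 2.20 TPM and Tie1 at 1.02 and 0.532 TPM. The defining genes were low but above 0 in every library, with Cdh5 at 0.598 to 36.4 TPM and Kdr, the receptor VEGFR2, at 0.452 to 5.72 TPM. The 4 epithelial markers summed to 0.0213 to 0.0899 TPM in media/vehicle, 3.11 to 4.29 TPM in WT CM/vehicle, 4.69 to 7.23 TPM in KEAP1 KO CM/vehicle, 0.0326 to 0.335 TPM in WT CM/CDDO-Me and 0.194 to 1.83 TPM in KEAP1 KO CM/CDDO-Me. Most of the difference with vehicle was Cdh1, which encodes E-cadherin and was the only 1 of the 4 that passed the filter. Its mean was 0.0429 TPM in media/vehicle, 3.52 TPM in WT CM/vehicle and 4.65 TPM in KEAP1 KO CM/vehicle. With CDDO-Me it was 0.0106 TPM in WT CM and 0.0284 TPM in KEAP1 KO CM. Epcam was at 0 in 16 of 24 libraries. The part of these cell types in the Flt1 result was not tested.

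**Figure D4:**
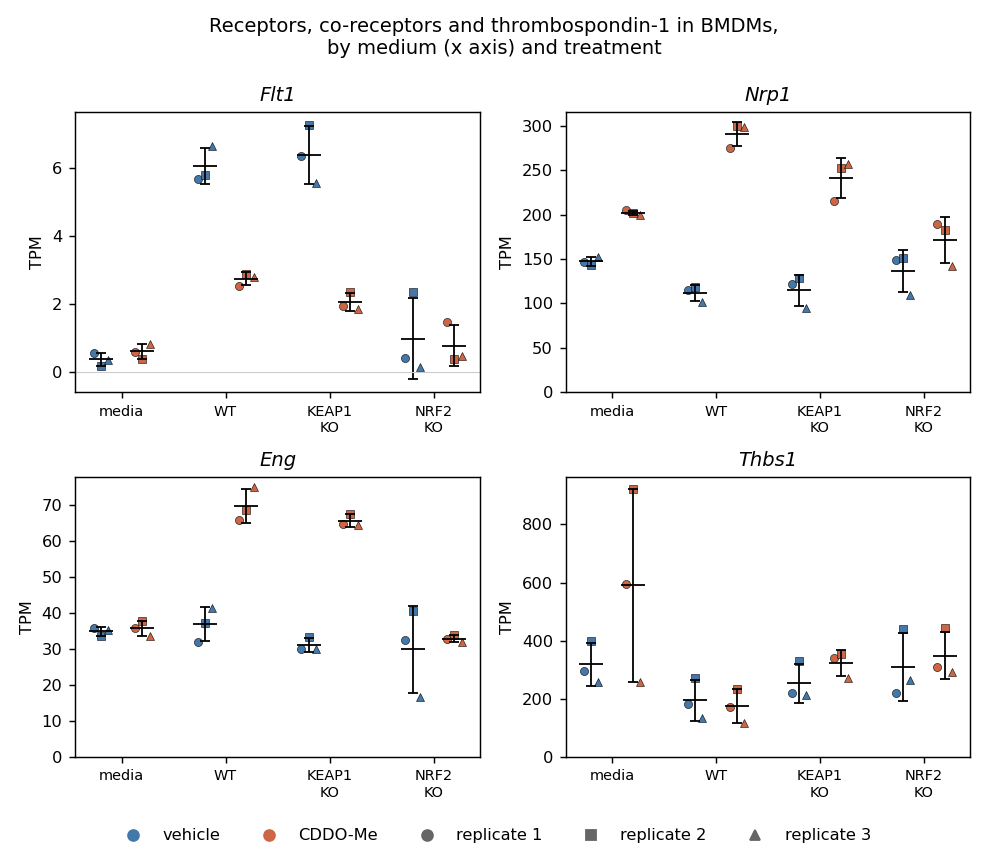
TPM (y axis, linear, a scale of its own in each panel) of the receptors and co-receptors Flt1, Nrp1 and Eng and of the inhibitor Thbs1 by medium (x axis) in vehicle (blue) and CDDO-Me (orange) libraries. Symbols are libraries, with circles, squares and triangles for replicates 1, 2 and 3, and lines are the mean and SD of 3 libraries. Eng averages 69.8 TPM in WT CM and 65.6 TPM in KEAP1 KO CM with CDDO-Me and is at most 41.5 TPM in every other library, and Thbs1 is highest in replicate 2 of every group.

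Nrp1, the co-receptor for VEGF-A and secreted semaphorins (chromosome 8, 129085085 to 129231082, plus strand), rose with CDDO-Me in all 4 media. Vehicle libraries were at 147, 143 and 152 TPM in media, at 115, 118 and 102 TPM in WT CM, at 121, 128 and 95.1 TPM in KEAP1 KO CM and at 149, 151 and 109 TPM in NRF2 KO CM. CDDO-Me libraries were at 205, 201 and 199.6 TPM in media, at 275, 299.5 and 298 TPM in WT CM, at 216, 252 and 256 TPM in KEAP1 KO CM and at 189, 183 and 142 TPM in NRF2 KO CM. The groups overlapped in NRF2 KO CM alone, where every CDDO-Me library was still above the vehicle library of its own number. By mean level, WT CM/CDDO-Me at 291 ± 14.0 TPM (SD, n = 3), KEAP1 KO CM/CDDO-Me at 242 ± 22.4 TPM and media/CDDO-Me at 202 ± 2.64 TPM were each clear of the next group, and from NRF2 KO CM/CDDO-Me at 171 ± 25.5 TPM downward neighbours overlapped.

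CDDO-Me raised Nrp1 by 0.46 in media (SE 0.10, adjusted p = 0.00628), by 1.49 in WT CM (adjusted p = 4.7e-10), by 1.24 in KEAP1 KO CM (adjusted p = 6.68e-09) and by 0.34 in NRF2 KO CM (adjusted p = 0.035). The last call was lost without NRF2 KO CM/vehicle replicate 3 or NRF2 KO CM/CDDO-Me replicate 1 or 2 (adjusted p up to 0.142). It was also lost without scaling, without a filter on low values and when only the groups compared were fitted (adjusted p up to 0.564). The effect exceeded that in media by 1.03 in WT CM (SE 0.14, adjusted p = 2.13e-05) and by 0.79 in KEAP1 KO CM (SE 0.14, adjusted p = 0.000452), with both calls kept in every fit without a library. With vehicle the order was reversed: Nrp1 was lower than in media by 0.33 in WT CM (log2 difference -0.33, adjusted p = 0.0454) and by 0.37 in KEAP1 KO CM (log2 difference -0.37, adjusted p = 0.0217). The WT CM call was lost with any one of the 6 libraries left out (adjusted p from 0.0747 to 0.177), and the KEAP1 KO CM call without media/vehicle replicate 1 or 3 or KEAP1 KO CM/vehicle replicate 3 (adjusted p up to 0.132). Both were lost without scaling between libraries.

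Eng, or endoglin, is the co-receptor through which endothelial cells read BMP9 and TGF-beta together with the receptor ALK1 (chromosome 2, 32535543 to 32574661, plus strand). In WT CM it was at 32.1, 37.2 and 41.5 TPM with vehicle and at 65.7, 68.7 and 74.9 TPM with CDDO-Me. KEAP1 KO CM libraries were at 30.1, 33.2 and 29.97 TPM with vehicle and at 64.7, 67.7 and 64.6 TPM with CDDO-Me. The other 12 libraries lay between 16.7 and 40.4 TPM, the lowest being NRF2 KO CM/vehicle replicate 3, and in media and NRF2 KO CM the vehicle and CDDO-Me libraries overlapped. The rises were 1.02 in WT CM (SE 0.16, adjusted p = 5.72e-05) and 1.22 in KEAP1 KO CM (SE 0.16, adjusted p = 6.13e-06), or 2.02-fold and 2.34-fold. They exceeded the effect in media by 0.98 (SE 0.23, adjusted p = 0.00516) and 1.19 (SE 0.23, adjusted p = 0.000972), and these 4 calls held with any library left out. The gene on the strand opposite to Eng is the protein-coding Fpgs.

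Thbs1, the matrix inhibitor thrombospondin-1 (chromosome 2, 117941974 to 117957616, plus strand), had the highest mean level of the members, 314 TPM over 24 libraries, and was called in no comparison. In media it was at 295, 400.1 and 258 TPM with vehicle and at 594, 922 and 257 TPM with CDDO-Me. In WT CM, where the means were lowest, it was at 181, 272 and 133 TPM with vehicle and at 172, 234 and 117 TPM with CDDO-Me. In both of these media the groups overlapped, and replicate 2 was highest in 8 of 8 groups and replicate 3 lowest in 7 of 8. The CDDO-Me difference of 0.74 in media (adjusted p = 0.299) passed with the replicate number as a block (adjusted p = 0.0385) and without media/CDDO-Me replicate 3 (1.204, adjusted p = 0.0344). Across the same groups the smooth muscle marker sum was 551 to 703 TPM in media/vehicle and 845 to 1752 TPM in media/CDDO-Me, again highest in replicate 2 of every group, and its part in the Thbs1 values was not tested.

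Partners of these genes were followed as a list of 30 ligands, receptors and regulators, of which 28 were tested. With CDDO-Me, 6 rose and 7 fell in WT CM, 7 rose and 8 fell in KEAP1 KO CM, 3 rose and 2 fell in media, and 4 rose and 3 fell in NRF2 KO CM. Of all genes, 13.9% rose and 13.9% fell in WT CM, 14.5% and 14.2% in KEAP1 KO CM, 3.07% and 2.94% in media and 4.49% and 5.28% in NRF2 KO CM. The list's median log2 change was -0.21 in WT CM and -0.10 in KEAP1 KO CM, beside -0.03 and -0.02 over all genes. Against media/vehicle, 1 was higher and 5 lower in WT CM/vehicle, beside 4.33% and 3.01% of all genes, and 0 higher and 4 lower in KEAP1 KO CM/vehicle, beside 4.66% and 3.31%, and none was called in NRF2 KO CM/vehicle or between KEAP1 KO CM and WT CM.

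The largest of these changes was that of Acvrl1, which encodes ALK1, the receptor that works with endoglin. It went from 21.3 ± 0.0033 TPM (SD, n = 3) in KEAP1 KO CM/vehicle to 192 ± 30.7 TPM with CDDO-Me, a log2 change of 3.27 (SE 0.25, adjusted p = 2.77e-09). Its levels were 25.7 and 208 TPM in WT CM, 20.0 and 57.8 TPM in media and 18.3 and 53.7 TPM in NRF2 KO CM, with vehicle and CDDO-Me. Flt4, which encodes the Vegfc receptor VEGFR3, rose with CDDO-Me in WT CM by 1.59 (adjusted p = 5.58e-06) from 0.246 to 2.52 TPM.

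Other platelet-derived growth factor ligands moved in opposite directions in WT CM with CDDO-Me. Pdgfa fell from 49.2 to 9.65 TPM (log2 change -2.09, adjusted p = 2.71e-07), while Pdgfc rose from 10.5 to 28.1 TPM (1.44, adjusted p = 5.80e-06), like Pdgfb. Plxnd1, a semaphorin receptor, fell from 264 to 101 TPM (-1.28, adjusted p = 3.01e-07). Angptl2, an angiopoietin-like secreted protein, differed in its response: the CDDO-Me effect in WT CM was below that in media by 2.25 on the log2 scale (log2 difference -2.25, adjusted p = 1.23e-07), with means of 93.9 and 33.6 TPM in WT CM and 71.2 and 135 TPM in media.

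Because Vegfa and Flt1 are textbook targets of HIF, regulators of HIF and other HIF targets were counted as well. Of 8 regulators tested, 2 rose with CDDO-Me in WT CM and 2 in KEAP1 KO CM, and none was called in media or NRF2 KO CM, beside the 13.9%, 14.5%, 3.07% and 4.49% of all genes that rose in WT CM, KEAP1 KO CM, media and NRF2 KO CM. In WT CM these were Vhl, the ubiquitin ligase subunit that marks HIF for degradation, at 16.9 and 39.4 TPM (1.29, adjusted p = 2.06e-08), and Hif1a, at 52.2 and 91.7 TPM (0.91, adjusted p = 0.00471). The medians of the 8 regulators were -0.08 in WT CM, 0.14 in KEAP1 KO CM, -0.10 in media and -0.02 in NRF2 KO CM. Of 11 targets tested, 2 were called higher with CDDO-Me in WT CM, 3 in KEAP1 KO CM, 1 in media and 1 in NRF2 KO CM, beside the same shares of all genes, and none was called lower. The medians of the targets were 0.19, 0.20, -0.06 and -0.0042 in that order, beside medians over all genes of -0.03, -0.02, -0.01 and -0.01. The means of some uncalled targets, Ldha among them, were lower with CDDO-Me in WT CM and KEAP1 KO CM.

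In KEAP1 KO CM the 3 targets were Slc2a1, Ndrg1 and the mitophagy gene Bnip3. Slc2a1, the glucose transporter GLUT1, went from 41.1 to 90.4 TPM (1.26, adjusted p = 4.54e-05). Ndrg1 went from 21.9 to 40.7 TPM (1.00, adjusted p = 0.00207) and Bnip3 from 54.0 to 86.3 TPM (0.76, adjusted p = 0.011). Slc2a1 means also rose with CDDO-Me in media (33.9 to 75.3 TPM) and WT CM (33.4 to 64.4 TPM). In NRF2 KO CM they rose from 32.2 to 72.7 TPM. Ndrg1 means went from 48.0 to 66.5, 24.7 to 38.8 and 43.9 to 61.3 TPM in these media, in that order. Bnip3 means went from 42.8 to 41.0, 42.7 to 55.6 and 55.6 to 62.1 TPM. The Bnip3 call was lost without KEAP1 KO CM/CDDO-Me replicate 1 or 2, the libraries on which the Vegfa call also depended (adjusted p up to 0.0728). It was also lost without scaling and when only the groups compared were fitted (adjusted p up to 0.0771). Pdk1, which slows the entry of pyruvate into the mitochondrion, gave a CDDO-Me effect in WT CM that exceeded that in media by 0.80 (adjusted p = 0.0405), a call lost without any of 8 of the 12 libraries (adjusted p up to 0.13). The Pdk1 call was also lost with no filter on low values. With vehicle, the glycolytic Ldha was higher in KEAP1 KO CM than in NRF2 KO CM by 0.79 (adjusted p = 0.013), at 1070.4 against 639 TPM. That call was lost without KEAP1 KO CM/vehicle replicate 1 or 2 or NRF2 KO CM/vehicle replicate 3 (adjusted p up to 0.0557). It was also lost when only the groups compared were fitted (adjusted p = 0.34).

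The genes whose pattern was most like each member were taken as the 2 with the highest Pearson r over the 8 group means of log2 values, as a description over points that share treatments and libraries. Each r is the highest among all genes tested over only 8 points, so a high value alone shows no relation. Members without a call reached similar values. For Eng these were Asb13 (r = 0.998) and Prcp (0.996), for Vegfb Bend4 (0.994) and Lrp12 (0.987), for Nrp1 Ubash3b (0.994) and Arhgap27 (0.988) and for Angpt2 the cell cycle genes Ckap2 (0.992) and Cks2 (0.987). For Pdgfb they were Adap1 (0.982) and Sh3bp2 (0.9752), for Flt1 Ibtk (0.982) and Treml2 (0.982) and for Vegfa Gnaq (0.967) and Nup98 (0.942). For the members without a call they were Hoatz (0.99) and Caskin2 (0.972) for Thbs1, Dhx15 (0.969) and Bzw1 (0.966) for Vegfc, and Rpl30-ps9 (0.989) and Ndnf (0.950) for Pgf.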

How the data were processed

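RNA of BMDMs was measured by poly-A RNA sequencing in 24 libraries, 3 in each of 8 groups, with groups and replicate numbers taken from the sample titles. The authors quantified reads with Kallisto on GRCm39 transcripts and the deposited values are TPM per gene name, although the table is described as counts; they sum to 999365 to 999801 per library over named genes, so the total carries no depth, which is unknown, and counting intervals are not given. A line without a gene name, at 0.0199 to 0.0635% of each library, was left out.

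From the deposited TPM, scale factors were computed as trimmed means of M values (30% and 5% trimmed, unweighted), genes above 1 TPM in at least 3 libraries were kept (13661, all 10 members among them), and log2(TPM/factor + 1) was fitted with limma 3.58.1 in R 4.3.3 as 8 group means with a mean-variance trend and 16 residual degrees of freedom. Tests were two-sided, with Benjamini-Hochberg adjustment over all genes tested in each of 14 comparisons: 6 between media with vehicle, 4 of CDDO-Me against vehicle, and 4 of the difference between CDDO-Me effects. As a check of the code, the fit was run on simulated data with known changes, planted only in genes above a set mean level. That simulation had independent noise and no divergent libraries, unlike these data, and lends no support to any result. Positions and promoter windows were read in Python 3.11.15 from GRCm39 with GENCODE annotation, and figures drawn with matplotlib 3.10.9. The sequence of a further promoter is not reported here.

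The members and lists were chosen with earlier results of these data known, and no result of a list is independent support. The 10 members are described in all libraries; from the lists of partners, HIF regulators and HIF targets, up to 6 genes each with the smallest adjusted p were named, and for each member the 2 genes with the most similar group means. Kdr, Cdh5, Vwf, Pecam1, Tie1, Cdh1 and Epcam were singled out from the marker lists after their values were seen. No reported test was paired, and the replicate number as a block was an alternative only. Same-numbered libraries were taken as deviating together where every pair's deviations from the group means correlated above 0.1. This held for WT CM/vehicle against media/vehicle (lowest r = 0.145), KEAP1 KO CM/vehicle against WT CM/vehicle (0.150), media/CDDO-Me against media/vehicle (0.156) and NRF2 KO CM/CDDO-Me against NRF2 KO CM/vehicle (0.504), and not for the other 10 comparisons. In these comparisons, in that order, the block called 3, 0, 4 and 3 members, where the reported fits called 2, 0, 2 and 2. The pairing is a hint from the data, since no source says what a number stands for. Alternatives were another scaling (relative log expression) or none, no filter or 5 TPM, pseudocounts of 0.1 and 5, a replicate block, no trend, array weights, only the groups compared, each library left out, the 2 NRF2 KO CM libraries of replicate 3 left out and, chosen after the data were seen, all 8 replicate 3 libraries left out. No batch is labelled.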

Additional observations from a re-analysis of the deposited data

Results flagged for a closer look

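The CDDO-Me effect differed between control media and WT CM or KEAP1 KO CM in 10 results, by the limma test of the difference itself. In WT CM minus media the log2 differences were 1.36 for Vegfa, 2.50 for Pdgfb, 0.98 for Eng, 1.03 for Nrp1 and -1.58 for Angpt2. In KEAP1 KO CM minus media they were 1.77 for Vegfa, 2.44 for Pdgfb, 1.19 for Eng, 0.79 for Nrp1 and -1.37 for Flt1. For Vegfa and Pdgfb the group means moved in opposite directions, lower with CDDO-Me in media and higher in WT CM and KEAP1 KO CM. For Nrp1 they were higher in all 3. For NRF2 KO CM minus media, 0 of 10 members were called. With CDDO-Me in NRF2 KO CM, the Vegfa mean went from 125 to 72.8 TPM and the Pdgfb mean from 28.4 to 17.9 TPM. The Nrp1 mean went from 136 to 171 TPM there. In the reported fits none of the falls of Vegfa and Pdgfb was called, nor was the Vegfa rise in WT CM. With the replicate number as a block in limma, the Vegfa falls passed in media (adjusted p = 0.0171) and in NRF2 KO CM (adjusted p = 0.0248). The Pdgfb fall in media passed without the 2 NRF2 KO CM libraries of replicate 3. The Vegfa rise in WT CM passed without WT CM/CDDO-Me replicate 3. The same media libraries enter every difference. With 3 libraries a group no single library was tested for standing apart from its group.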

How the results depend on the processing

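No log2 change given with the members changed sign in any alternative run. Counts of members called stayed within 1.5 times for CDDO-Me in WT CM (5 to 7, against 6) and KEAP1 KO CM (6 to 8, against 7). With any library left out, the count was 1 for WT CM against media (2 with all), 1 to 3 for KEAP1 KO CM against media (3), 1 to 2 for WT CM against NRF2 KO CM (1), 1 to 3 for KEAP1 KO CM against NRF2 KO CM (1), 1 to 2 for CDDO-Me in NRF2 KO CM (2) and 3 to 5 for the effect in WT CM minus media (5).

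Without scaling and without a filter, the count was 1 for WT CM against media and 1 for CDDO-Me in NRF2 KO CM, and without a trend 1 for WT CM against media. The replicate block gave 2 for WT CM against NRF2 KO CM and 4 for CDDO-Me in media. In the first comparison the lowest r of same-numbered libraries, 0.0821, missed the check. Their mean r was 0.146, beside -0.0697 for libraries of different numbers. Beside the values given with the members, the block moved no other count by over 1.5 times. Array weights gave 4 (WT CM) and 5 (KEAP1 KO CM) against media, 1 between these CM, 3 (WT CM) and 4 (KEAP1 KO CM) against NRF2 KO CM, 5 for CDDO-Me in media and 4 in NRF2 KO CM. Fitting only the groups compared gave 0 against NRF2 KO CM for either other CM and 0 for CDDO-Me in NRF2 KO CM, with fewer samples behind each spread. Without the 2 NRF2 KO CM libraries of replicate 3, which array weights put at 0.0359 and 0.0735, the counts against NRF2 KO CM were 3 and 3 (WT CM, KEAP1 KO CM). Without all 8 replicate 3 libraries they were 4 and 4, with 4 for WT CM against media, 5 for CDDO-Me in media and 4 in NRF2 KO CM. Where no construction of the alternative shows it, the cause was not tested.

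Depth limits could not be set from TPM.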
